A study of Mus musculus with 4 samples.

Results

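Olfactory receptor genes, named Olfr in the mouse, lie in long clusters in which gene follows gene with few others between them. The peaks described here are the narrow (refined) H3K36me3 peaks on the 19 autosomes that lie within 50 kb of any of 1106 protein-coding Olfr genes of the GENCODE annotation of mm9. There were 269 such peaks in B6, of 58502 refined peaks on all chromosomes, and 354 in KI, of 72692. The choice used gene names and distances and no measured value. B6 is C57BL/6J, and KI is B6.Cg-Prdm9<tm1.1Kpgn>/Kpgn, a strain with the same genetic background in which the exon of Prdm9 that encodes the zinc fingers was replaced with that of the Cst allele. Spermatocytes of both strains were taken at 14 days post-partum (dpp), and the input of each strain, which served as control for peak calling, is labelled 15 dpp. For each strain, biological replicates were merged before peaks were called, so that 1 list of refined peaks and 1 list of broad (unrefined) regions stand for each strain. No value below therefore has a replicate error, and no test between the strains was possible. The lists hold positions only, with no height or read number, and how many reads lie behind any peak is unknown. The methods give more aligned reads for KI than for B6, and the part of this in differences between the strains was not tested.

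H3K36me3 is laid down along the bodies of transcribed genes by SETD2, where it follows elongating RNA polymerase. In germ cells entering meiosis, PRDM9 places it as well, on the nucleosomes beside the sites that its zinc fingers bind, and strains with different zinc fingers mark different sites. Olfactory receptors are odorant receptors with a coding sequence that usually lies in a single exon, and they are known for their expression in olfactory sensory neurons, where each cell uses a single receptor gene and the others are kept in closed chromatin. Transcription was not measured in the data used here, so that the silence of these genes was judged only by the absence of broad H3K36me3 regions over them.

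The germ cell label was checked on genes with known roles in meiosis and the germ line. All 10 such genes, among them Sycp1, Sycp3, Dmc1 and Ddx4, lay in broad regions over at least 50% of the gene in both strains. The lowest values were 82.4% in B6 and 77.4% in KI. Of all autosomal protein-coding genes, 43.2% in B6 and 41.6% in KI were covered to 50%. Markers of testis somatic cells were mostly unmarked in KI, but less so in B6. Of the 4 Sertoli cell markers, B6 regions covered Wt1 to 71.7% and KI regions to 8.49%, Sox9 to 45.2% and 0%, Amh to 42.0% and 0.333% and Gata4 to 19.6% and 8.25%. Of the 4 Leydig cell markers, Star was covered to 100% in both strains and Cyp17a1, Insl3 and Hsd3b1 were at 0. The part of this difference in the peaks near Olfr genes was not tested.

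The sequences of a few peaks are shown because these lie outside protein-coding genes, meet no region of the other strain and hold a 10-mer that was more frequent in peaks of their strain elsewhere on the autosomes. Most peaks near Olfr genes hold no such 10-mer. Peaks of up to 300 bp were eligible, which gave 4 in B6 and 3 in KI. The sequences are those of the forward strand of mm9, and capitals mark the listed 10-mers, on either strand, with overlapping matches joined.

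The B6 peaks lie 4380 bp downstream of Olfr656, 7237 bp upstream of Olfr466, 8462 bp upstream of Olfr24 and 18263 bp upstream of Olfr938.
B6 peak near Olfr656, chr7:111771541-111771803: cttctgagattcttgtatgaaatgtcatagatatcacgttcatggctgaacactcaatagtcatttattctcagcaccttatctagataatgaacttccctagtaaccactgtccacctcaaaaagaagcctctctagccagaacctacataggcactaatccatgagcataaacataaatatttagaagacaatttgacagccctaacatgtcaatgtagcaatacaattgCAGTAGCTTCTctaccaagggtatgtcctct
B6 peak near Olfr466, chr13:65246000-65246297: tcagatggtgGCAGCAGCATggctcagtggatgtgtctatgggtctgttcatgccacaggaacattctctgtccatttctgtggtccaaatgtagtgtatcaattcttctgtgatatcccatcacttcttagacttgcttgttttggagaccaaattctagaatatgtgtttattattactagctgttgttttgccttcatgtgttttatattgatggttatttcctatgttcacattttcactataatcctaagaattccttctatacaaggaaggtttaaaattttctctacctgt
B6 peak near Olfr24, chr9:18568615-18568896: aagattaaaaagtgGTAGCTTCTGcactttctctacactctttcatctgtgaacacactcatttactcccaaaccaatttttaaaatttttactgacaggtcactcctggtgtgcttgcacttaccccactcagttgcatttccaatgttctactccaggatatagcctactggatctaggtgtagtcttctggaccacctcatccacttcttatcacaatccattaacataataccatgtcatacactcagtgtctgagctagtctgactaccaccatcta
B6 peak near Olfr938, chr9:38904664-38904875: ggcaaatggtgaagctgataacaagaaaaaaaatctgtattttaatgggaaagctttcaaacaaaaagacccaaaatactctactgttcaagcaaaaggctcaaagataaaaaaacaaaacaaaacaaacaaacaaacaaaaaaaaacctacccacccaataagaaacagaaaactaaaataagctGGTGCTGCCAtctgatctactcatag

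The KI peaks lie 6562 bp upstream of Olfr963, 6863 bp upstream of Olfr97 and 43558 bp downstream of Olfr444.
KI peak near Olfr963, chr9:39469824-39470082: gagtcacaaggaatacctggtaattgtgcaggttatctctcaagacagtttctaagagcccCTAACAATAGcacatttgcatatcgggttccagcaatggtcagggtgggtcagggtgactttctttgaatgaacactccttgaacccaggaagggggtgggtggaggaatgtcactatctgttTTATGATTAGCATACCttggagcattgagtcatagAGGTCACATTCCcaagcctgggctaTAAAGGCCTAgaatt
KI peak near Olfr97, chr17:37376280-37376549: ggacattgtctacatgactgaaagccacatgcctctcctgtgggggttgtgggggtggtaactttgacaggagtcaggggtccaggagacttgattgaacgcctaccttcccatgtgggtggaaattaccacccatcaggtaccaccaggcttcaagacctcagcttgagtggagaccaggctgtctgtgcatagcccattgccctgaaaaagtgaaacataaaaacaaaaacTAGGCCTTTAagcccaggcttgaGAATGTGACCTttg
KI peak near Olfr444, chr6:42950065-42950333: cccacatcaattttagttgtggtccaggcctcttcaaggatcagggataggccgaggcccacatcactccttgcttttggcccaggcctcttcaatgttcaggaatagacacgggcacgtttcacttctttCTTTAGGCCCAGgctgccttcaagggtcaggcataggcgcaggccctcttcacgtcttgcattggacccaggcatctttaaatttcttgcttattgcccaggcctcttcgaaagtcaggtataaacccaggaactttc

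The first B6 peak holds CAGTAGCTTCT, in which 2 listed 10-mers overlap, and the third holds GTAGCTTCTG on the same strand. The 10-mer AGTAGCTTCT, contained in the first, was found in 0.642% of the B6 peaks used to choose the list and in 0.0922% of the corresponding KI peaks. In KI, the peaks near Olfr963 and Olfr97 share 3 listed 10-mers, which stand on opposite strands in these peaks. They lie in a single stretch of similar sequence in both peaks, and 2 of them overlap, so that they are not separate matches. One of them, GAATGTGACC, stood first in the KI list, at 1.45% of the KI peaks used to choose it and 0.0642% of the B6 peaks. The third KI peak holds CTTTAGGCCCAG. The peak near Olfr963 lies in the chromosome 9 cluster, where KI had 26 peaks and B6 had 9.

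The Olfr genes were almost free of broad regions. In B6, 19 of the 1106 Olfr genes (1.72%, Wilson 95% interval 1.10% to 2.67%) were touched by a broad region, whereas 60.7% of all autosomal protein-coding genes were. In KI, 33 (2.98%, 2.13% to 4.16%) were touched, against 62.5% of all autosomal protein-coding genes. With at least 50% of the gene covered, there were 11 Olfr genes in B6 (0.995%, 0.556% to 1.77%) and 16 in KI (1.45%, 0.892% to 2.34%), against 43.2% and 41.6% of all autosomal protein-coding genes. Broad regions covered 0.859% of the summed length of the Olfr genes in B6 and 1.52% in KI. For all other protein-coding genes, these values were 38.9% and 36.001%. Olfr genes are short, with a median length of 960.5 bp. Of the 2165 other protein-coding genes of up to 2 kb, 15.0% in B6 (13.6% to 16.6%) and 15.1% in KI (13.6% to 16.6%) were covered to 50%. The intervals cover the number of genes only, and neighbouring Olfr genes can share a region.

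**Figure D1:**
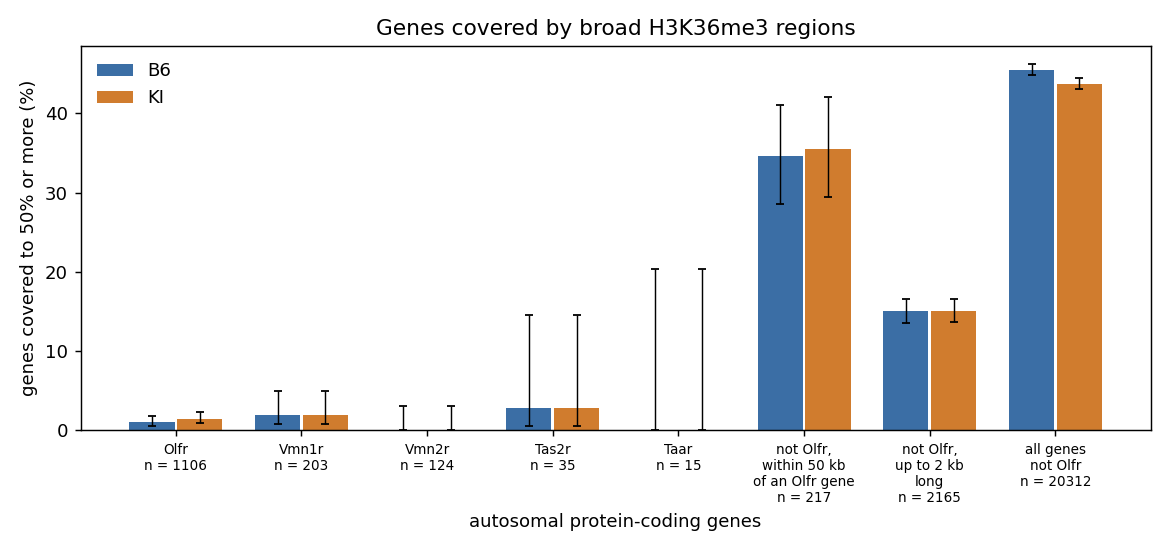
Share of autosomal protein-coding genes (%) that broad regions cover to at least 50%, in B6 and KI, for Olfr genes, other receptor gene families and sets of other genes. Bars are shares and error bars are Wilson 95% intervals, and Olfr genes stand at 0.995% in B6 and 1.45% in KI beside 15.0% and 15.1% for other genes of up to 2 kb.

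The marked Olfr genes differed between the strains. Of the 25 that were covered to 50% in either strain, 2 were so in both (8.0%, 2.22% to 24.97%), 9 in B6 alone and 14 in KI alone. Among all other protein-coding genes, 9530 were covered to 50% in either strain and 8600 of them in both (90.2%, 89.6% to 90.8%). Only 2165 of the 20312 other genes are up to 2 kb long, and this share was not computed for these alone. The pair of Olfr genes covered in both strains were Olfr543 and Olfr267. Olfr543 (chr7:109625287-109626416, reverse strand) was covered to 100% in both strains, by a broad region of 6500 bp in each, which ended at 109628000 in B6 and 109627500 in KI. The nearest other protein-coding gene is Rrm1, which encodes the large subunit of ribonucleotide reductase and ends 3.22 kb from the B6 region and 2.72 kb from the KI region. Neither strain had a refined peak within Olfr543, and the nearest one in the region over it lay 1198 bp from the gene in B6 and 719 bp in KI. Olfr544, in the same cluster, stood at 52.4% in B6, from 2 broad regions, and 31.4% in KI, from 1. Olfr267 (chr4:58797651-58798594) stood at 100% in B6, where 2 overlapping regions spanned 4500 bp, and 90.0% in KI, where 1 region spanned 4500 bp, and a B6 refined peak of 117 bp lay in its coding exon. Upstream of it stands the gene AI314180, and in B6 a peak 5790 bp from Olfr267 belonged to a broad region of 117000 bp, the longest that held any of the peaks described here. Olfr692 (chr7:112516744-112517869) stood at 77.2% in B6 and 32.8% in KI, from the edge of a region of 30000 bp in B6 and 29500 bp in KI that also met Fam160a2 and Gm5901. It was the only Olfr gene covered to 50% by a region that met another protein-coding gene, in 1 of 11 cases in B6 and 0 of 16 in KI.

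Genes covered in KI alone were each the site of a short region. Olfr1122 (chr2:87227813-87228892), Olfr1178 (chr2:88231406-88232377), Olfr351 (chr2:36714934-36715866), Olfr461 (chr6:40494035-40494976), Olfr591 (chr7:110321205-110322149), Olfr1394 (chr11:48973518-48974456), Olfr1419 (chr19:11944636-11945795) and Olfr979 (chr9:39807791-39808835) were covered to 100% in KI and 0% in B6. Their KI regions were 2000 to 4000 bp long. In all but Olfr979, a KI refined peak overlapped the gene itself, and at Olfr979 the peak stood 29 bp from it. Olfr1329 (chr4:118589129-118590070) was covered to 92.6% in KI and 0% in B6.

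B6 had the same kind of gene. Olfr1120 (chr2:87197583-87198593) and Olfr1328 (chr4:118606504-118607445) were covered to 100%, Olfr553 (chr7:109762521-109763501) to 99.9%, Olfr316 (chr11:58571106-58572116) to 88.5% and Olfr1341 (chr4:118381015-118382952) to 74.9%, with 0% in KI in each case. Their B6 regions were 2000 to 4500 bp long. Neighbours could fall to different strains. In the cluster of 13 Olfr genes on chromosome 4, Olfr1341 and Olfr1328 were marked in B6 and Olfr1329, between them, in KI. On chromosome 2, Olfr1120 was marked in B6 and Olfr1122 in KI. Olfr16, a receptor known from testis and sperm, was covered to 0% in both strains.

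**Figure D2:**
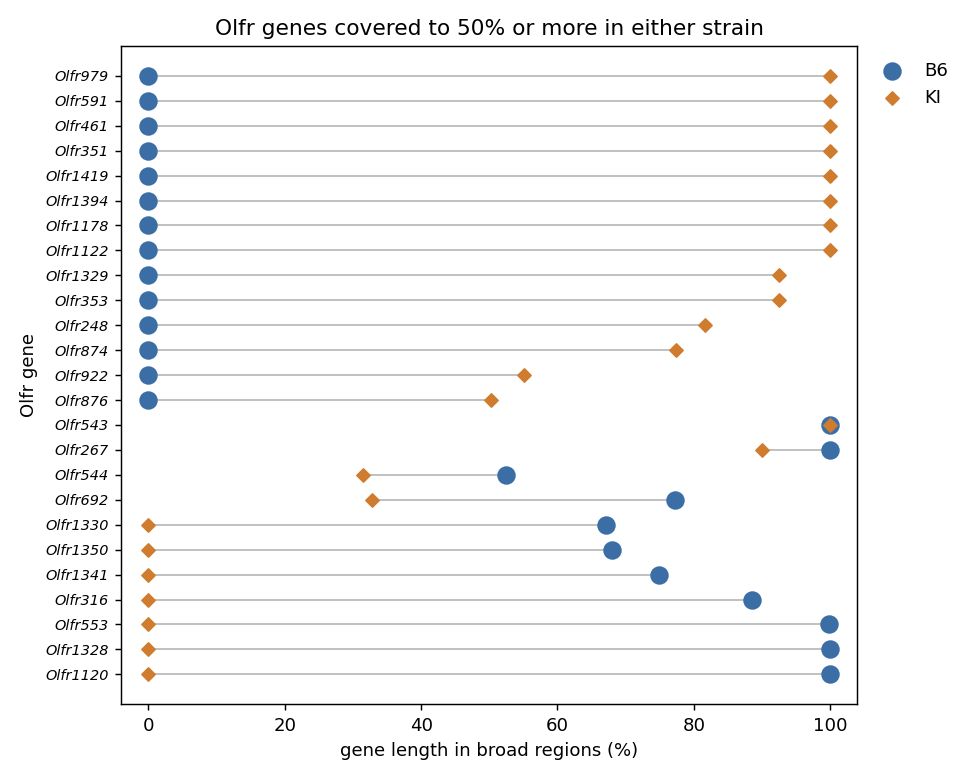
Share of the gene length in broad regions (%) in B6 (circles) and KI (diamonds) for the 25 Olfr genes covered to at least 50% in either strain, joined by a line per gene. In all but Olfr543, Olfr267, Olfr544 and Olfr692, one strain stands at 0%.

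Few refined peaks fell within Olfr genes themselves, which took up only 1.82 Mb outside other protein-coding genes. By peak midpoint, they held 3.29 per Mb in B6 (1.21 to 7.16) and 5.48 in KI (2.63 to 10.1). These intervals include the values at up to 10 kb from the genes, 5.10 in B6 and 6.52 in KI. By overlap of at least 1 bp, there were 9 peaks in B6, of which 7 met an exon, 5 of them a coding part, and 2 lay in introns. There were 13 in KI, of which 9 met an exon, 8 of them a coding part, and 4 lay in introns. Both Olfr212 and Olfr151 held a refined peak of each strain, in Olfr212 at chr6:116455476-116456628 in B6 and chr6:116459360-116459613 in KI, and in Olfr151 at chr9:37534725-37535219 in B6 and chr9:37520630-37521644 in KI. None of these peaks within Olfr genes overlapped a refined peak of the other strain, and 7 of 9 in B6 and 13 of 13 in KI met no region of the other strain of either kind, beside 43.3% and 32.1% of all autosomal peaks. Most of all autosomal peaks lie in protein-coding genes, and for peaks outside these in the rest of the autosomes the shares were 63.8% and 68.2%. The 412 bp and 667 bp peaks of KI in Olfr56 lie in introns of a gene annotated over 156499 bp, the longest of the Olfr genes.

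The space around the Olfr genes held fewer refined peaks than the rest of the autosomes, and the difference was smaller outside genes than over the whole windows. The area within 50 kb of an Olfr gene spanned 33.6 Mb, or 1.40% of the autosomal bases, and held 0.496% of the autosomal refined peaks in B6 (0.440% to 0.559%) and 0.519% in KI (0.468% to 0.576%). Per Mb, B6 had 8.004 refined peaks (exact Poisson 95% interval 7.08 to 9.02), against 22.9 in the rest of the autosomes, which is 2.86 times as many. KI had 10.5 (9.46 to 11.7), against 28.7, or 2.73 times as many. Outside other protein-coding genes, the windows held 5.03 peaks per Mb in B6 (4.28 to 5.88), against 8.74 in the rest of the autosomes outside protein-coding genes (8.59 to 8.90). In KI these values were 6.86 (5.97 to 7.84) and 12.5 (12.3 to 12.7). Inside the other protein-coding genes of the windows there were 46.4 peaks per Mb in B6 (38.2 to 55.8), against 44.1 elsewhere, and 58.0 in KI (48.8 to 68.5), against 53.2. The intervals of the windows thus included the values of the other genes. Intervals cover counting error only. Only reads of unique position had been kept, and how much of the windows such reads could reach was not analysed here.

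Broad regions followed the same order, but each refined peak lies within a broad region of its strain, so that this is not a separate observation. They held 1.82% of the bases of the windows outside other protein-coding genes in B6 and 2.25% in KI, against 4.03% and 4.75% in the rest of the autosomes outside protein-coding genes. Inside other protein-coding genes they held 40.3% for B6, with 38.9% elsewhere, and 40.7% for KI, with 35.9% elsewhere.

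Up to 30 kb from the receptor genes the peaks were sparse, and farther out their number per Mb was higher, without a steady rise in B6. Outside other protein-coding genes, there were 5.10 peak midpoints per Mb in B6 (4.10 to 6.27) and 6.52 in KI (5.39 to 7.83) at up to 10 kb from an Olfr gene. From 10 to 20 kb the values were 4.397 (2.94 to 6.31) and 6.37 (4.59 to 8.61). From 20 to 30 kb there were 3.46 in B6 (1.58 to 6.57) and 6.15 in KI (3.52 to 9.99). From 30 to 40 kb both strains had 10.2 (5.72 to 16.9). From 40 to 50 kb there were 7.44 in B6 (3.21 to 14.7) and 14.9 in KI (8.503 to 24.2), and just outside the limit, from 50 to 60 kb, 12.9 in B6 (6.69 to 22.6) and 22.6 in KI (14.0 to 34.6), where the KI interval lay above the 12.5 of the rest of the autosomes. The outer bins rest on 8 and 16 peaks from 40 to 50 kb and on 12 and 21 from 50 to 60 kb. The farthest peak counted in B6 lay 49977 bp from an Olfr gene, Olfr1513, and the nearest one left out lay at 50027 bp, from Olfr1444. In KI these distances were 49822 bp, from Olfr461, and 50167 bp, from Olfr522.

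**Figure D3:**
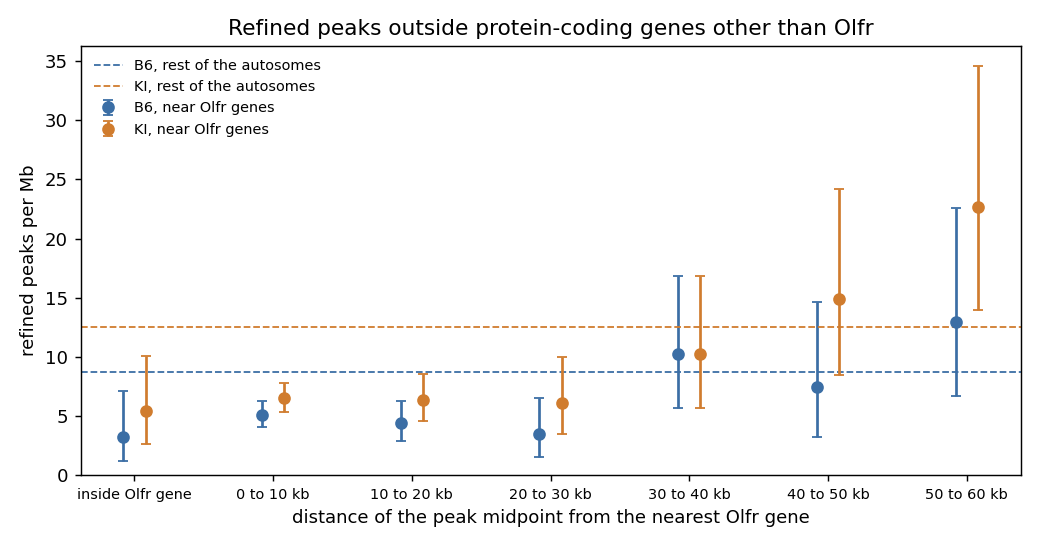
Refined peaks per Mb outside protein-coding genes other than Olfr, by distance of the peak midpoint from the nearest Olfr gene, in B6 and KI. Points carry exact Poisson 95% intervals and dashed lines mark the rest of the autosomes outside protein-coding genes, 8.74 per Mb in B6 and 12.5 in KI. Up to 30 kb, all points outside the Olfr genes stand below the line of their strain.

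Peaks near Olfr genes lay outside genes more often than other peaks, but their windows also held less gene space. Other protein-coding genes took up 2.41 of the 33.6 Mb of the windows, against 941.9 of 2360.1 Mb in the rest of the autosomes. The shares below were not adjusted for this. In B6, 148 of 269 (55.0%, 49.0% to 60.9%) met no protein-coding gene, 112 (41.6%) met a protein-coding gene other than an Olfr gene and 9 (3.35%) met an Olfr gene. In KI, the numbers were 201 of 354 (56.8%, 51.6% to 61.8%), 140 (39.5%) and 13 (3.67%). In the rest of the autosomes, 77.0% of the B6 peaks and 73.9% of the KI peaks met a protein-coding gene. Of the peaks in no gene, 63 of 148 in B6 (42.6%, 34.9% to 50.6%) and 105 of 201 in KI (52.2%, 45.4% to 59.0%) were upstream of the nearest Olfr gene, and both intervals include 50%. Their median distance from it was 7094.5 bp in B6 and 7790 bp in KI.

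In size, these peaks differed little from others. Their median width was 321 bp in B6, with quartiles of 257 and 491 bp, and 303.5 bp in KI, with quartiles of 256.25 and 475.5 bp, beside 312 and 318 bp in the rest of the autosomes. Those in no other protein-coding gene lay in broad regions with a median of 2500 bp in both strains, near the shortest length in the lists of 2000 bp. Those in other protein-coding genes lay in regions with a median of 8500 bp in B6 and 6000 bp in KI. The median GC content of the peaks outside other protein-coding genes was 39.0% in B6 and 39.7% in KI, beside 41.1% and 42.2% for peaks outside protein-coding genes elsewhere. The widest peak in no gene was a KI peak of 2662 bp at chr7:109657839-109660500, 14552 bp upstream of Olfr545. In B6 it was a peak of 2168 bp at chr17:37291999-37294166, 3003 bp upstream of Olfr93. Neither met a region of the other strain.

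The strains were compared at each peak by overlap of at least 1 bp. Of the B6 peaks near Olfr genes, 44 of 269 (16.4%, 12.4% to 21.2%) overlapped a KI refined peak, beside 17.7% of all autosomal B6 refined peaks. In KI, 44 of 354 (12.4%, 9.39% to 16.3%) overlapped a B6 refined peak, beside 14.1% of all autosomal KI refined peaks. These shares were near those of all peaks. A larger share, 141 of 269 in B6 (52.4%, 46.5% to 58.3%), met no KI region of either kind, beside 43.3% of all autosomal peaks. In KI, 195 of 354 (55.1%, 49.9% to 60.2%) met no B6 region, beside 32.1% of all autosomal peaks. The shares depended on the place of the peak. Outside other protein-coding genes, 122 of 157 B6 peaks (77.7%, 70.6% to 83.5%) met no KI region, against 63.8% elsewhere (62.9% to 64.6%). In KI, 170 of 214 (79.4%, 73.5% to 84.3%) met no B6 region, against 68.2% elsewhere (67.5% to 68.8%). Inside other protein-coding genes, the share was 19 of 112 in B6 (17.0%, 11.1% to 24.98%), against 37.2% elsewhere, and 25 of 140 in KI (17.9%, 12.4% to 25.03%), against 19.2% elsewhere.

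**Figure D4:**
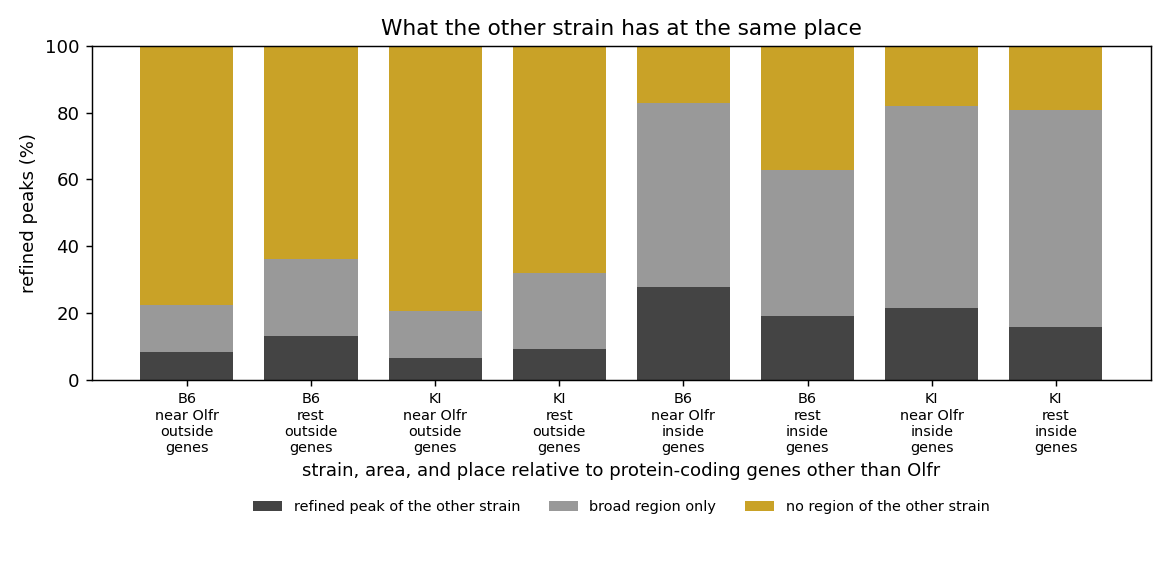
Share of refined peaks (%) that overlap a refined peak of the other strain, only a broad region of it, or neither, for peaks near Olfr genes and in the rest of the autosomes, outside and inside protein-coding genes other than Olfr. Outside such genes, peaks that met neither made up 77.7% near Olfr genes and 63.8% in the rest of the autosomes in B6, and 79.4% and 68.2% in KI.

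Peaks of a single strain made up a larger share beside the receptor genes than farther out. Within 10 kb of an Olfr gene and outside other protein-coding genes, 82 of 96 B6 peaks (85.4%, 77.0% to 91.1%) and 112 of 126 KI peaks (88.9%, 82.2% to 93.3%) met no region of the other strain. From 10 to 50 kb the shares were 40 of 61 (65.6%, 53.05% to 76.3%) and 58 of 88 (65.9%, 55.5% to 74.96%). In the rest of the autosomes, outside protein-coding genes, they were 63.8% and 68.2%. Those values lay within the intervals from 10 to 50 kb and below the intervals within 10 kb. Refined peaks that overlapped between the strains numbered 3 of 96 (3.13%, 1.07% to 8.79%) in B6 and 3 of 126 (2.38%, 0.813% to 6.77%) in KI within 10 kb, beside 13.1% and 9.30% of the peaks outside protein-coding genes in the rest of the autosomes. A pair of peaks that overlapped outside genes close to an Olfr gene lay upstream of Olfr316, at chr11:58568685-58569609 in B6 and chr11:58568976-58569274 in KI, 1497 and 1832 bp from the gene. Another pair stood upstream of Olfr155, at chr4:43857727-43858474 in B6 and chr4:43858066-43858361 in KI. These pairs were chosen after their values were seen. For peaks with no overlapping refined peak of the other strain, the nearest one lay at a median distance of 8364 bp in B6 and 11420 bp in KI.

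The 20 10-mers of each list had been chosen on peaks that do not lie near Olfr genes, and the peaks near Olfr genes had no part in the choice. Both strands were searched, and 10-mers of a list overlap each other. The lists are spelled out because the shares below rest on them.

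B6 list: AGAAGCTACT, GATGTTACTA, CAGTAGCTTC, AGGTACTACC, ATGCTGCTGC, GGTAGTAGCA, GCAGATACTA, GATGCTGCTA, CAGAAGCTAC, CAGATGCTAC, GAAGCTACTA, CAGTAGCACC, GGCAGTAGCA, GCTACTACCA, GGTGCTGCCA, GATACTACCC, GCAGCACCAC, GGTGCTACCA, AGGTGCTACT, GGAGCTACTA.

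KI list: GAATGTGACC, GCCTAAAGGC, GCTAATCATA, GGAATGTGAC, CTGGGCCTAA, GGTATGCTAA, CTAATCATAA, CTTTAGGCCC, CCTAAAGGCC, AATGTGACCT, ATAGACGTCA, ATAGCGACAT, AGATAGCGAC, TAAAGGCCTA, ATGATTAGCA, ACGTCTATCT, GACGTCTATC, AATGTCGCTA, CTAACAATAG, TGGGCCTAAA.

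A 10-mer of the B6 list was found within the central 400 bp of 6 of 141 B6 peaks near Olfr genes with no KI region (4.26%, 1.965% to 8.97%) and of 2 of 195 such KI peaks (1.03%, 0.282% to 3.66%). Over all autosomal peaks, B6 had a share of 3.47% and KI one of 1.2%. A 10-mer of the KI list stood in 10 of 195 such KI peaks (5.13%, 2.81% to 9.18%) and in 2 of 141 B6 peaks (1.42%, 0.390% to 5.02%). Over all autosomal peaks, these shares were 1.88% in KI and 0.876% in B6. Stretches of 400 bp near Olfr genes that met no region of either strain held a 10-mer of the B6 list in 727 of 78416 cases (0.927%) and one of the KI list in 580 (0.740%). The lower bounds of the B6 share on the B6 list and of the KI share on the KI list thus lay above these values, whereas the intervals of both strains overlapped on either list. With 10-mers chosen and counted on all peaks that overlap no refined peak of the other strain, the B6 share on its own list was lower, at 1.78%, and the KI share was 3.23%. Among peaks elsewhere with no region of the other strain, the B6 share on the B6 list was 5.14% and the KI share on the KI list 3.21%. The lists were chosen on these same peaks, and the shares over all autosomal peaks include them. Neither is therefore an independent reference for the peaks near Olfr genes.

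By position, the Olfr genes formed 53 clusters when genes up to 500 kb apart were joined, of which 10 had a single gene. The peaks were spread over nearly all of them, with at least 1 peak in 49 clusters in B6 and 48 in KI, and 3 clusters held none in either strain. KI had more peaks than B6 in 27 clusters, B6 had more in 12, and the numbers were equal in 14. In total, KI had 1.32 times as many as B6, beside 1.26 times over all autosomal peaks. The 6 largest clusters hold 613 Olfr genes, and 71 of the B6 and 108 of the KI peaks lay there.

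The largest cluster, on chromosome 2 (chr2:85171054-90122730), has 221 Olfr genes and held 13 peaks in B6, or 2.59 per Mb, and 20 in KI, or 3.99 per Mb. All 13 of the B6 and 18 of the 20 KI peaks met no region of the other strain, beside 63.8% and 68.2% of the peaks outside protein-coding genes in the rest of the autosomes. Within it, a stretch of 691.5 kb with 30 Olfr genes held no broad region of either strain. On chromosome 7 (chr7:109625287-112517869), a cluster of 129 Olfr genes held 23 peaks in B6 and 29 in KI. The cluster of 94 genes on chromosome 9 (chr9:37518857-39995679) differed most between the strains among these, with 9 peaks in B6 (3.49 per Mb) and 26 in KI (10.1 per Mb). Of these, 7 and 18 met no region of the other strain, beside 43.3% and 32.1% of all autosomal peaks. However, 5 of the 9 and 17 of the 26 lay in no protein-coding gene, and for peaks outside protein-coding genes elsewhere the shares were 63.8% and 68.2%. On chromosome 19 (chr19:11902567-13994534), 65 genes had 13 peaks in B6 and 16 in KI, but a stretch of 1077.5 kb at the distal side, with 42 of the genes, held no broad region of either strain. The cluster of 58 genes on chromosome 10 (chr10:128426905-129648205) held 6 and 5 peaks, and that of 46 genes on chromosome 17 (chr17:37222136-38473042) held 7 and 12.

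Larger clusters had fewer peaks per Mb. The 16 clusters of at least 20 genes held 5.01 peaks per Mb in B6 (4.16 to 5.99) and 7.73 in KI (6.66 to 8.91). The 37 smaller ones had 15.85 (B6, 13.4 to 18.6) and 17.9 (KI, 15.3 to 20.8). The limit of 20 genes was chosen after the data were seen. Peaks in no protein-coding gene differed in the same direction, with 74 in 24.3 Mb of the larger and 74 in 9.27 Mb of the smaller clusters in B6, and 109 and 92 in KI. These areas are whole windows, with gene space included. Size of a cluster also goes with distance, since the window of a single gene, of about 0.101 Mb, is nearly all flank. The values were not adjusted for distance or gene space, and the part of these in the difference was not tested.

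**Figure D5:**
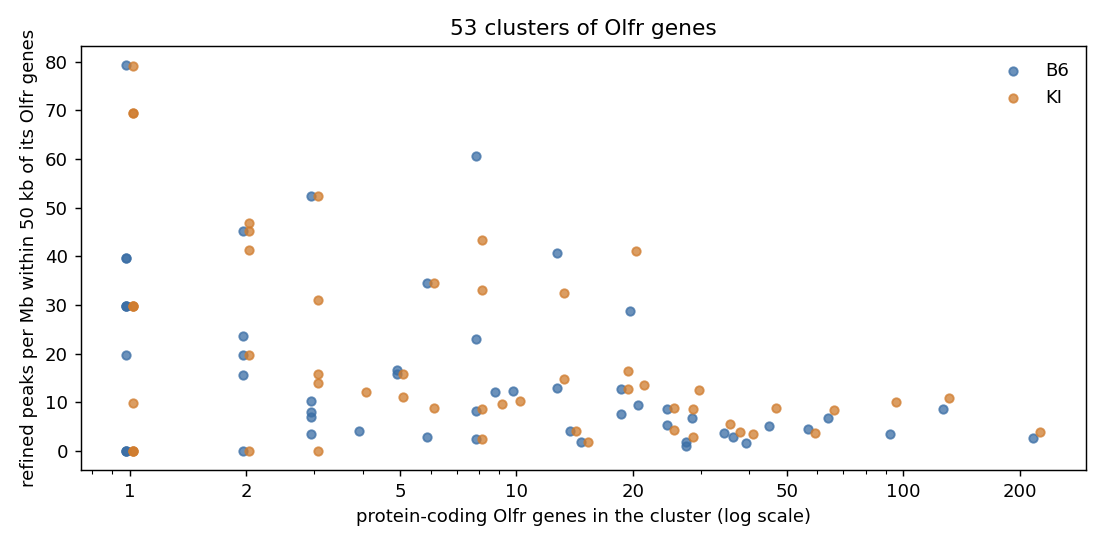
Refined peaks per Mb within 50 kb of the Olfr genes of each of 53 clusters against the number of Olfr genes in the cluster on a log scale, for B6 and KI, with the strains set slightly apart sideways. The largest cluster, of 221 genes, stands at 2.59 per Mb in B6 and 3.99 in KI. Clusters of a single gene range from 0 up to 79.3 in B6 and 79.1 in KI, and each of these highest values rests on 8 peaks in about 0.101 Mb.

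Other protein-coding genes flank or interrupt the clusters. Of 217 such genes within 50 kb of an Olfr gene, 75 in B6 (34.6%, 28.6% to 41.1%) and 77 in KI (35.5%, 29.4% to 42.1%) were covered to 50%. These shares were lower than the 45.5% and 43.7% of all autosomal protein-coding genes other than Olfr genes. With Olfr genes counted, the latter were 43.2% and 41.6%, and the KI interval includes 41.6%. The 10 that held most peaks were all covered to more than 50% in both strains. Each refined peak lies within a broad region of its strain, so that coverage of genes chosen by their peaks is not a separate observation. Peaks also lay in genes with less, such as Npr2, chosen after its values were seen. It held 2 peaks in each strain and had a coverage of 23.9% in B6 and 39.4% in KI. Lpxn, which encodes the adaptor leupaxin, held 6 peaks in B6 and 4 in KI. Zfp560, a zinc finger gene, held 4 and 5, and Aspa, which encodes aspartoacylase, 4 and 4. Gabbr1, a subunit of the GABA-B receptor, lies beside the chromosome 17 cluster and held 3 and 5. There were 2 and 5 in 4930504O13Rik, 5 and 2 in Tmem8b and 3 and 3 in Tecr, an enzyme of fatty acid elongation. Trim6, a ubiquitin ligase gene, held 1 and 5, Vwa5a 2 and 4 and Ilvbl 2 and 3. Coverage of these genes ranged from 61.0% (Zfp560) to 87.4% (Vwa5a) in B6 and from 53.8% (Vwa5a) to 86.7% (Tmem8b) in KI. Spata22, a gene needed for meiotic recombination, chosen after its values were seen, stands beside Aspa on chromosome 11, and Olfr20 lies within its span. It had 72.6% of its length covered in B6 and 74.5% in KI and held 2 and 3 peaks.

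Genes that act with the receptors in olfactory neurons were marked to a varying degree. Of 20, 6 in B6 and 7 in KI were covered to 50%, beside 43.2% and 41.6% of all autosomal protein-coding genes, so that the list did not stand above other genes. Of the signalling chain, Gng13, a G protein subunit, was covered to 82.8% in both strains, Adcy3, the adenylyl cyclase, to 79.6% in B6 and 66.6% in KI, and Ric8b, a chaperone of the G protein, to 99.9% and 98.8%. Gnal, the olfactory G protein itself, was covered to 4.33% and 8.31%, and the channel genes Cnga4 and Ano2 to 0% and 0% and to 1.43% and 2.002%. Omp, a marker of mature olfactory neurons, and Rtp1 and Rtp2, which carry receptors to the cell surface, were at 0% in both strains. Of the regulators of receptor choice, Kdm1a was covered to 97.8% and 95.9%, Ldb1 to 42.9% and 62.7%, Lhx2 to 25.5% and 21.3% and Emx2 to 0% in both.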

How the data were processed

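The authors performed H3K36me3 ChIP-seq on MNase-digested chromatin from formaldehyde-fixed nuclei and, per the labels and methods, aligned reads to mm9 with BWA (version 1.2.3 in the submitters' processing notes), kept reads of unique position, merged replicates and ran ZINBA with the strain's input as control. The deposited lists give chromosome, start and end without a score. Broad starts lie 1 base past multiples of 500 bp, which was taken to mean 1-based positions that include both ends. Genes came from GENCODE vM1 and sequence from NCBIM37, the assembly of mm9. Broad regions were joined before coverage was computed, and N bases left out of areas. The 10-mers were ranked by the lower 95% bound of the log odds of presence between the strains (0.5 added to each count, at least 10 peaks, no simple repeats) and counted in the central 400 bp. Shares have Wilson and densities exact Poisson 95% intervals, which cover counting error only. Python 3.11.15, numpy 2.4.6, pandas 2.3.3, scipy 1.17.1 and matplotlib 3.10.9 were used, and the code was tested on simulated data.

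The Olfr genes named are the 15 of highest mean coverage, the 5 with the largest difference in each direction, Olfr16 and those nearest to printed peaks. Olfr544, and genes named for peaks within or beside them or at the distance limit, were chosen after their values were seen. The printed peaks are the nearest 4 per strain that met the conditions given (3 in KI). Other genes named are the 10 that held most peaks, ties in alphabetical order, and the clusters are the 6 with most Olfr genes. The members and lists were chosen with earlier results of these data known. Alternatives varied the distance, overlap, coverage limit, cluster gap and 10-mers.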

Additional observations from a re-analysis of the deposited data

Results flagged for a closer look

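The X chromosome was left out of the comparisons above. Of its 7 protein-coding Olfr genes, 1 was touched by a broad region in B6 and 0 in KI. Within 50 kb of them lay 4 refined peaks in B6, given here because no comparison above used them, or 6.99 per Mb (exact Poisson 95% interval 1.90 to 17.9), an interval that includes the 8.004 per Mb near autosomal Olfr genes. KI had 2, or 3.49 per Mb (0.423 to 12.6). The difference between the strains was not tested.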

How the results depend on the processing

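No paired analysis was possible because each strain has 1 pooled list, and for the same reason no replicate could be left out. The causes of the changes below were not tested unless the alternative itself gives them. Values are given for B6 and then KI. A distance of 10 kb gave 105 and 137 peaks, a share shared between the strains of 4.76% and 3.65% and a density of 5.33 and 6.96 per Mb. A distance of 100 kb gave 439 and 591 peaks and a density of 10.9 and 14.6 per Mb. Outside other protein-coding genes, the density was 5.03 and 6.86 per Mb. The shared share was 11.9% and 9.32% with 50% of the shorter peak required, 30.1% and 24.3% with peaks within 500 bp counted, 47.6% and 44.9% once broad regions were counted too, and 8.78% and 6.97% for peaks in no protein-coding gene. With a coverage limit of 80%, the covered Olfr genes in B6 numbered 6. Without broad regions of up to 5 kb they numbered 2 and 1, so that nearly all of this coverage came from short regions. With 10-mers chosen and counted on all strain-only peaks, the B6 share with a 10-mer of its own list was 1.78%. The other 24 values computed under alternatives kept within 1.5 times the number given above or, for shares, within its 95% interval. An area without masked repeats was not run, since the sequence used is not masked.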

Other observations

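Few genes of other receptor families were covered to 50% by broad regions. Of the 203 Vmn1r genes, which encode vomeronasal receptors, 4 were covered to 50% in each strain (1.97%, Wilson 95% interval 0.769% to 4.96%), and of the 124 Vmn2r genes 0 were, with an upper bound of 3.005%. Of 35 Tas2r genes, the bitter taste receptors, 1 was covered to 50% in each strain, and of 15 Taar genes, the trace amine-associated receptors, 0 were, with an upper bound of 20.4%. Broad regions held 8.04% of the summed length of the Vmn1r genes in B6 and 7.39% in KI, beside 0.859% and 1.52% for Olfr genes, and touched 5 of the Vmn2r genes in B6 (4.03%, 1.73% to 9.09%) and 13 in KI (10.5%, 6.23% to 17.1%). Within 50 kb of Vmn1r genes there were 6.02 refined peaks per Mb in B6 (exact Poisson 95% interval 4.63 to 7.71) and 7.55 in KI (5.98 to 9.41). Near Vmn2r genes there were 3.58 (2.58 to 4.84) and 6.31 (4.96 to 7.93), beside 8.004 and 10.5 near Olfr genes. Near Tas2r genes there were 6.77 (3.25 to 12.5) and 8.80 (4.69 to 15.1), and near Taar genes 6.91 (0.837 to 24.98), from 2 peaks, and 24.2 (9.73 to 49.9), from 7. Peaks that met no region of the other strain made up 26 of 63 near Vmn1r genes in B6 (41.3%) and 37 of 79 in KI (46.8%). Near Vmn2r genes they made up 26 of 42 in B6 (61.9%) and 51 of 74 in KI (68.9%). Near Tas2r genes they were 6 of 10 in B6 and 9 of 13 in KI, and near Taar genes 1 of 2 and 6 of 7. The shares near Olfr genes were 52.4% in B6 and 55.1% in KI, beside 43.3% and 32.1% of all autosomal peaks. In both strains the Olfr share lay above that of Vmn1r and below that of Vmn2r. However, its Wilson 95% interval overlapped those of both families in each strain, so that this order is uncertain. In KI the intervals were 49.9% to 60.2% for Olfr, 36.2% to 57.7% for Vmn1r and 57.7% to 78.3% for Vmn2r. These shares cover peaks inside and outside genes alike. These differences between families were not tested.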
